A study of Homo sapiens with 6 samples.

Results

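Large H3K27me3 domains are stretches of chromatin in which trimethylation of histone H3 at lysine 27 covered 10 kb or more. H3K27me3 peaks of both culture conditions on chromosomes 1 to 22 were joined into loci where they lay within 3 kb of each other. A locus was kept as a large domain where the mean of its H3K27me3-covered lengths in the 2 conditions reached 10 kb. The rule was met by 370 of 7736 loci. The domains were thus chosen by their H3K27me3 lengths, which are given below as a description. H3K4me3, trimethylation at lysine 4 of the same histone, had no part in the choice.

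H3K27me3 is written by Polycomb repressive complex 2 and read by other Polycomb complexes, and in stem and progenitor cells it lies over the genes of developmental transcription factors that are not in use. H3K4me3 marks promoters, and promoters that carry both marks are called bivalent. In neural progenitors the Polycomb-covered genes include regulators of other regions of the neural tube and of other germ layers. Libraries were made from bulk cultures, so overlap of the 2 marks at a locus does not show that both sat on the same chromosome copy.

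The established human embryonic stem cell line H9 (WA-09) was differentiated in the direction of midbrain dopamine neurons, and neural progenitors were taken at day 11. All cultures began in SHH C25II, LDN, SB431542, Y-27632 and 0.7 µM CHIR99021, a GSK3 inhibitor that activates canonical WNT signalling. Boost-Chir cultures were given 7.5 µM CHIR99021 from day 4. The concentration in Low-Chir cultures over that time is not stated in the labels, which list 0.7 µM as the lowest one tried. On day 10 the medium was replaced by one with BDNF, GDNF, ascorbic acid, TGFβ3, dibutyryl cAMP and 3 µM CHIR99021. Each mark was profiled by chromatin immunoprecipitation and sequencing (ChIP-seq) in 1 library per condition, so no difference below has a replicate check and no p-value is given. Intervals cover counting over loci only and treat loci as independent.

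The background in each list, which scales with depth, put the Boost-Chir H3K27me3 library at 0.971 times and the Boost-Chir H3K4me3 library at 1.21 times the depth of its Low-Chir partner. Over all of chromosomes 1 to 22, H3K27me3 peaks covered 0.900 times and H3K4me3 peaks 1.29 times as much length in Boost-Chir as in Low-Chir. The part of depth in these totals was not tested. The lists hold no expression values, so the identity of the cells was not checked against their marker genes.

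Positions are on hg19. No hg19 annotation was used, and genes were attached to domains from general knowledge of where they lie on that build, after the positions of the domains had been seen. In this way 298 genes were placed in 251 domains, and 119 domains have no gene named. All 298 lie on the same chromosome in the RefSeq table of build GRCh38.p14, and 275 of 276 neighbouring pairs stand there in the same order. The names show which well-known genes lie in a domain and are no measure of how often domains hold such genes.

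Several of the domains hold genes of microRNAs, short RNAs that bind messenger RNAs through a seed at bases 2 to 8. Of 14 microRNA genes named in the domains, 13 were used here with their RefSeq sequences of build GRCh38.p14, giving 20 mature microRNAs with 19 seeds. The mature forms below are those of the 3 genes for miR-9, a regulator of neural progenitors, and of microRNAs within the HOX clusters and the sensory-organ cluster MIR183/MIR96/MIR182. Each is written 5′ to 3′ with its seed in capitals. The miR-9 sequences are the same for MIR9-1, MIR9-2 and MIR9-3, and miR-196a-5p and miR-196b-5p share 1 seed.
hsa-miR-9-5p: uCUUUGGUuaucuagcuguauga
hsa-miR-9-3p: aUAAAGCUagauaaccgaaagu
hsa-miR-196a-5p: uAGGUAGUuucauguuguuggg
hsa-miR-196b-5p: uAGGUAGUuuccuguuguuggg
hsa-miR-10a-5p: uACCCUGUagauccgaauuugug
hsa-miR-183-5p: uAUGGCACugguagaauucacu
hsa-miR-96-5p: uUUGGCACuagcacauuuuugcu
hsa-miR-182-5p: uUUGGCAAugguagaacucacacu

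Large Polycomb domains are known to lie over promoters rich in CpG dinucleotides. The promoters below belong to domains where Boost-Chir had less H3K27me3 and a wider H3K4me3 (EN2, PAX2, ZIC1) and to domains that held less H3K4me3 there (DMRTA2, NKX2-2, DBX1). Each runs from 250 bases before to 50 after the first start that RefSeq lists for the gene on GRCh38.p14, in the direction of the gene, with CpG dinucleotides in capitals.
EN2: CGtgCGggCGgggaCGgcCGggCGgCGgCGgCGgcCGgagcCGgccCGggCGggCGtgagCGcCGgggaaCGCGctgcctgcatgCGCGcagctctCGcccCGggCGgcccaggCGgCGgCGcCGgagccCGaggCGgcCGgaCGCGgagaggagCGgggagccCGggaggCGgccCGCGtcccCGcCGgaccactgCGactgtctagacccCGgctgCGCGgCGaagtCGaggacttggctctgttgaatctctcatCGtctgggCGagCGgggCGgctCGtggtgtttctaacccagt
PAX2: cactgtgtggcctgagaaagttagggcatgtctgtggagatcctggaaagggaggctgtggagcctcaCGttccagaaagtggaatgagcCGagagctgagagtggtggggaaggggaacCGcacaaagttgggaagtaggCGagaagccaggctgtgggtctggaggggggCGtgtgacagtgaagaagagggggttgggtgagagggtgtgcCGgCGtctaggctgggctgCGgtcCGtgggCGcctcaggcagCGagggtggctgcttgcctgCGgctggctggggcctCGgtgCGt
ZIC1: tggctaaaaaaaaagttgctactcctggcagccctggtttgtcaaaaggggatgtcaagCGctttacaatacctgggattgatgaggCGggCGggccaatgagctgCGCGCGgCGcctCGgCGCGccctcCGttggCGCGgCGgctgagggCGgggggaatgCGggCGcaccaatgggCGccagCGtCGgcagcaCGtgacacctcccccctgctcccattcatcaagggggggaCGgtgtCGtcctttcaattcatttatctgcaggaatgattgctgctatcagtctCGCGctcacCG
DMRTA2: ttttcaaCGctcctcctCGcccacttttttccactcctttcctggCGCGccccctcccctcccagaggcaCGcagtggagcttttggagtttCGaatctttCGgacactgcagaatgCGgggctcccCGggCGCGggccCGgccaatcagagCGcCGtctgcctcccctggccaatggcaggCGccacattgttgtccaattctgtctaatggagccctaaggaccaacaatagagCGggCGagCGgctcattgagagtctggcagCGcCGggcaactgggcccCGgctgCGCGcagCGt
NKX2-2: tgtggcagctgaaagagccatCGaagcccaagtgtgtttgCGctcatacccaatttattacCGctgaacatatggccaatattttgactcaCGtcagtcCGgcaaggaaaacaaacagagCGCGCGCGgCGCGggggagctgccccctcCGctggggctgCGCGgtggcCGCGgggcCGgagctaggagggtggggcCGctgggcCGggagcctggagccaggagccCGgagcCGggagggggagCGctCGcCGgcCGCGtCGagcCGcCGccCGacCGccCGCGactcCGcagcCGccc
DBX1: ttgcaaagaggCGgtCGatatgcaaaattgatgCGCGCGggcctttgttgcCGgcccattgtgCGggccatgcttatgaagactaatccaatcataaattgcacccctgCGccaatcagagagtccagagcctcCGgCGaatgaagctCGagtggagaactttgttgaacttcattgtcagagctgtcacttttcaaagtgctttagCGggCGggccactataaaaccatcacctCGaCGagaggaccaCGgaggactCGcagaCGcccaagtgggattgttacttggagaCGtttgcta
These 300 bases held 50 CpG dinucleotides at EN2, 14 at PAX2 and 26 at ZIC1, against 24 at DMRTA2, 35 at NKX2-2 and 19 at DBX1. The counts of the 2 groups overlapped. Promoters were in the table for 195 of the named genes, and 182 of these genes start inside a domain. Their median was 24 CpG dinucleotides, and 68.7% had 20 or more. Over all 26246 promoters of chromosomes 1 to 22 the median was 14 and the share 41.5%. The 182 genes were picked from general knowledge after the domains had been seen. The difference from all promoters is therefore not read as a trait of the domains. The letters CTTTGAT or CTTTGAA, core forms of the site bound by the WNT effectors TCF and LEF, were looked for on both strands. They were in 11 of the 182 promoters (6.04%) and in 6.96% of all promoters. Of the 6 promoters shown, that of DBX1 holds them.

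The longest domains lay over the HOX clusters, which give positions along the body axis. The HOXC domain (chr12:54281870-54545239) was 232 kb long under H3K27me3 peaks under Low-Chir and 226 kb under Boost-Chir. HOXA (chr7:27128163-27298368) had 168 and 164 kb, HOXB (chr17:46558928-46764084) 162.5 and 165 kb, and HOXD with EVX2 (chr2:176917589-177063684) 135 and 135 kb. The 4 clusters thus differed by less than 3% between the conditions, and 85.2% to 96.2% of the bases covered in either condition were covered in both. The fifth was the MIR9-3 domain (chr15:89890398-90033488), with 109.7 kb under Low-Chir and 108.5 kb under Boost-Chir.

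Other long domains belonged to genes of heart, limb, immune and metal-binding functions as well as to neural genes. TBX5, a heart and forelimb regulator (chr12:114827605-114921886), had 76.5 kb under Low-Chir and 74.3 kb under Boost-Chir. GATA4, a regulator of heart and endoderm (chr8:11526654-11616647), had 69.2 and 66.9 kb. TLX1, a homeobox gene of spleen and sensory neurons (chr10:102821001-102931775), had 72.7 and 75.4 kb. A domain over ULBP1 and ULBP2, ligands of an immune receptor (chr6:150238881-150343112), had 86.1 and 85.2 kb, and one over the metallothionein genes MT2A, MT1E and MT1G (chr16:56637894-56719700) had 75.6 and 70.2 kb. All 5 kept their length within 8% of Low-Chir. Of the first 15 domains by mean length, the remaining ones are described below, apart from a domain without a named gene (chr6:28721484-28801732) of 72.1 and 66.6 kb.

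**Figure D1:**
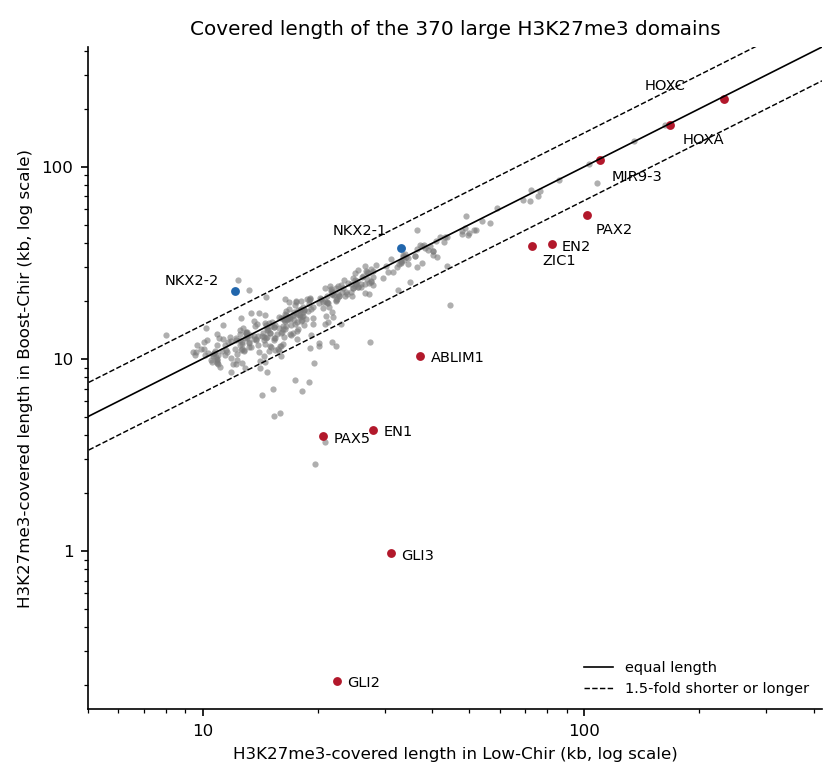
H3K27me3-covered length of each of the 370 large domains in Low-Chir (x axis) and Boost-Chir (y axis), in kb on log scales; each point is 1 domain, the solid line marks equal length and the dashed lines a 1.5-fold difference. Red (shorter in Boost-Chir) and blue (longer) points carry names; HOXC, HOXA and MIR9-3 sit on the solid line, and GLI2 is lowest, at 22.4 kb against 0.211 kb.

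Most domains kept nearly their whole length. The median ratio of covered length, Boost-Chir over Low-Chir, was 0.952 (order-statistic 95% interval 0.937 to 0.966), with the middle 50% of domains between 0.868 and 1.03. H3K27me3 was shorter in Boost-Chir at 251 domains and longer at 119, where 60.1% of all loci with H3K27me3 in both lists were shorter. It was at least 1.5 times shorter at 30 domains (8.11%, exact 95% interval 5.54 to 11.4) and at least 1.5 times longer at 4 (1.08%, 0.295 to 2.75). Over all loci marked in both lists these shares were 26.0% and 15.7%. Lengths chose the domains and a ratio of short lengths varies more, so nothing is read from the distance to those shares. The count of 30 was 19 with a joining distance of 1 kb, 13 where both conditions had to reach 10 kb and 18 at a limit of 2-fold. The count of 4 was 2 with joining at 1 kb and 1 at 2-fold. With the Low-Chir H3K27me3 list reduced to its strongest peaks until both lists covered the same length, 26 domains were shorter and 9 longer.

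The spread of the ratio narrowed with size. The middle 50% of loci under 2 kb spanned ratios of 0.518 to 1.47, that of the 565 loci of 5 to 10 kb 0.791 to 1.05, and that of the 120 domains of 20 to 50 kb 0.912 to 1.03. The medians were 0.894, 0.916 and 0.964 in these classes. The 370 domains are 4.78% of all loci and held 43.9% of the H3K27me3-covered length under Low-Chir and 44.7% under Boost-Chir. In total they covered 9.09 and 8.33 Mb. The 10 domains with the greatest falls made up 38.6% of this net difference, which is falls less rises. The summed ratio of 0.916 was 0.945 without them. They were picked by their falls and no rises were taken out, so a higher ratio was fixed in advance.

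**Figure D2:**
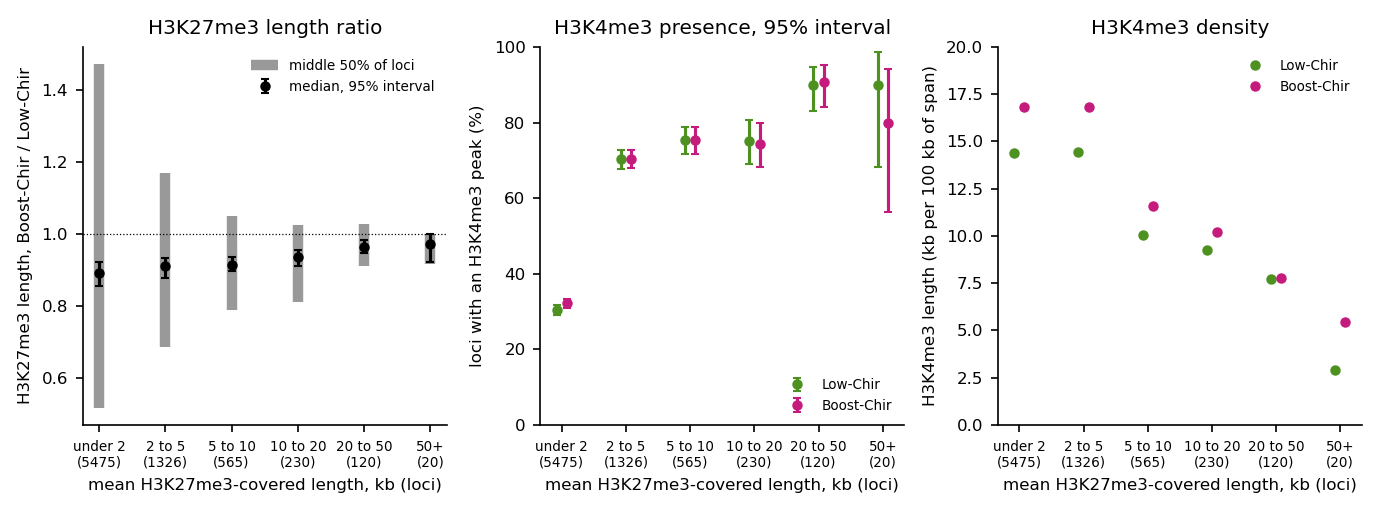
H3K27me3 loci by mean covered length (x axis, kb, with the number of loci in each class): left, ratio of H3K27me3 length with the median and its 95% interval (points) and the middle 50% of loci (grey bars); middle, share of loci with an H3K4me3 peak with exact 95% intervals; right, H3K4me3 length per 100 kb of span. The ratio uses loci with H3K27me3 in both lists, which are 2193 of the 5475 under 2 kb. The middle 50% of ratios spreads less in larger loci, and H3K4me3 is present in more of them but covers less of their span.

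Within a domain the covered bases were largely the same ones. Of the 9.09 Mb covered in Low-Chir, 81.2% was also covered in Boost-Chir, and 88.6% of the bases covered in Boost-Chir were also covered in Low-Chir. Both cultures were taken at day 11. Words such as kept, lost and moved therefore name differences between the cultures and not changes followed over time. The median domain kept 75.4% of the bases covered in either condition. A domain could hold its total and still shift: a stretch between INHBB and GLI2 (chr2:121181661-121353330) had 102.8 kb in both conditions but only 56.7% of its covered bases in common. At least 50% of the Low-Chir bases were uncovered in Boost-Chir at 23 domains.

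H3K27me3 was also more broken up in Boost-Chir. The median longest unbroken run was 7.48 kb under Low-Chir and 5.78 kb under Boost-Chir, with a shorter run under Boost-Chir at 270 domains. Runs of 20 kb or more were present in 35 domains under Low-Chir and 13 under Boost-Chir. The number of peaks in the domains went the other way, with 5563 under Low-Chir and 6131 under Boost-Chir. The height of the strongest peak, in reads above its local background divided by the background of the list, had a median of 11.8 under Low-Chir and 10.6 under Boost-Chir. It was the lower of the 2 under Boost-Chir at 295 of the domains. In loci of 5 to 10 kb these medians were 8.93 and 8.22, so the lower height in Boost-Chir was also seen outside the large domains. Over all of chromosomes 1 to 22 the Low-Chir list held 25370 H3K27me3 peaks over 20.7 Mb and the Boost-Chir list 25893 over 18.6 Mb. More peaks over less length was thus a feature of the whole lists.

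The greatest falls included domains over genes of the midbrain, the hindbrain and their border. PAX2, a paired-box gene of the midbrain-hindbrain border (chr10:102400112-102524949), had 102 kb of H3K27me3 under Low-Chir and 56.0 kb under Boost-Chir. EN2 with its neighbour CNPY1 (chr7:155229116-155329802) had 82.1 and 39.4 kb; EN2 is an engrailed homeobox gene of the midbrain and anterior hindbrain. ZIC1 and ZIC4, zinc-finger genes of the dorsal neural tube (chr3:147070151-147145863), had 72.8 and 38.6 kb. EN1, the other engrailed gene (chr2:119585593-119620873), had 28.0 and 4.28 kb. These 4 domains kept between 14.6% and 52.1% of the bases covered in either condition.

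GLI2 and GLI3, transcription factors of Hedgehog signalling, each had a domain within the gene that was almost absent in Boost-Chir. The GLI3 domain (chr7:42100074-42149545) had 31.1 kb under Low-Chir and 0.970 kb under Boost-Chir. The GLI2 domain (chr2:121617532-121662529) had 22.4 and 0.211 kb. A further domain beyond GLI2 without a named gene (chr2:121776421-121837667) had 44.6 and 19.1 kb. ABLIM1, which encodes an actin-binding protein (chr10:116405900-116457523), had 37.1 and 10.4 kb. NFIX with LYL1 (chr19:13089895-13214245) had 108 and 82.5 kb, and a domain on chromosome 11 without a named gene (chr11:116447094-116478042) had 20.9 and 3.67 kb.

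The uncovered bases were scattered at some of these domains and continuous at others. The longest stretch with no Boost-Chir H3K27me3 reached 33.4 kb at GLI3, 37.6 kb at GLI2 and 27.9 kb at EN1, and held 71.8%, 85.3% and 90.6% of the lost bases. At PAX2 the longest such stretch was 6.54 kb with 13.3% of the lost bases, and at ZIC1/ZIC4 5.73 kb with 16.2%. Over the 30 domains at least 1.5 times shorter, the longest stretch had a median of 7.12 kb and reached an end of the domain at 7.

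PAX2 and PAX5 recur among the shortened domains. Domains over PAX genes numbered 11, with a median ratio of 0.700 (order-statistic interval 0.443 to 1.083). That interval reached above equal length and included the median of all domains, 0.9515. Of the 11, 5 were at least 1.5 times shorter, all of them over PAX2 or PAX5, against 30 of all 370 domains. PAX5, another gene of the midbrain-hindbrain border and of B cells, had 3 domains on chromosome 9 that together held 57.7 kb under Low-Chir and 21.2 kb under Boost-Chir. PAX3 and PAX7, genes of the dorsal neural tube and neural crest, had 34.9 and 43.7 kb under Low-Chir and 24.98 and 30.5 kb under Boost-Chir. A second PAX2 domain (chr10:102577274-102598495) had 15.3 and 6.95 kb, and PAX8 had 15.7 and 11.2 kb. PAX1, a gene of the sclerotome, had 25.2 and 24.6 kb, PAX9 had 28.4 and 30.8 kb, and PAX6, a gene of forebrain, eye and spinal cord, had 33.4 and 38.0 kb. The 11 domains are not independent, since PAX5 gives 3 and PAX2 gives 2 of them. No trait of the PAX family is therefore read from them.

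Other families showed ratios close to that of all the domains. The median was 0.999 over the 12 forkhead domains, 0.967 over the 10 T-box domains and 0.976 over the 21 bHLH domains, and none of these 43 was past 1.5-fold in either direction. The 27 zinc-finger domains had a median of 0.968, with 3 at least 1.5 times shorter. The 81 domains over homeobox genes outside the HOX clusters and the PAX family had a median of 0.972, with 4 shorter and 1 longer past that limit. Domains without a named gene had a median ratio of 0.912, and 14 of these 119 were at least 1.5 times shorter. Domains over signalling ligands numbered 13. Among them FGF17, a ligand of the midbrain-hindbrain border (chr8:21894952-21929487), had 27.4 kb under Low-Chir and 12.3 kb under Boost-Chir. WNT6/WNT10A had 54.0 and 52.1 kb, WNT8B 51.3 and 46.6 kb, WNT3A 16.6 and 16.0 kb, and WNT10B/WNT1 20.9 and 23.3 kb.

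Longer H3K27me3 in Boost-Chir was seen at a smaller number of domains. NKX2-2, a homeobox gene of the ventral neural tube (chr20:21483922-21509828), had 12.2 kb under Low-Chir and 22.5 kb under Boost-Chir. UNC5A, a netrin receptor gene (chr5:176229119-176253338), had 8.00 and 13.4 kb. DBX1, a homeobox gene of interneuron progenitors (chr11:20173261-20190315), had 10.2 and 14.4 kb. The 2 greatest rises had no named gene: chr16:79309359-79353607 with 12.4 and 25.8 kb, and chr12:54126035-54196941 next to HOXC with 36.5 and 47.0 kb. Chr5:72581532-72611876 had 13.2 and 22.7 kb, and chr11:2061369-2086920 had 14.7 and 20.9 kb. NKX2-1, a gene of the ventral forebrain (chr14:36958435-37001569), had 33.1 and 37.8 kb, a ratio of 1.14.

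H3K4me3 was present in most of the domains. It was found in 299 of 370 in Low-Chir (80.8%, exact 95% interval 76.4 to 84.7) and in 296 in Boost-Chir (80.0%, 75.6 to 84.0), against 42.9% and 44.2% of all H3K27me3 loci. Longer loci have more room for a peak, and the shares were 75.4% in both conditions in loci of 5 to 10 kb. With the Boost-Chir H3K4me3 list reduced to its strongest peaks until it covered as much as Low-Chir, its share of domains was 50.8%. The domains held 7.41 kb of H3K4me3 per 100 kb of span under Low-Chir and 8.32 kb under Boost-Chir, where loci under 2 kb held 14.4 and 16.8 kb. Both conditions had H3K4me3 at 279 domains, Low-Chir alone at 20, Boost-Chir alone at 17 and neither at 54.

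H3K4me3 peaks inside the domains had lower folds than those outside H3K27me3 loci, as did peaks in smaller H3K27me3 loci, and few lay near the domain ends. The authors' fold enrichment of H3K4me3 peaks had a median of 4.36 under Low-Chir and 4.08 under Boost-Chir, against 5.21 and 4.56 for peaks outside all H3K27me3 loci. Only 4.22% and 4.89% of the peaks in domains reached 8-fold, against 29.5% and 27.6% of those outside. In H3K27me3 loci under 10 kb the median folds were 4.62 and 4.36, and 8.36% and 10.3% of peaks reached 8-fold. Of the H3K4me3 summits in domains, 42.7% under Low-Chir and 43.8% under Boost-Chir fell in the middle 33.3% of the span, and 10.3% and 10.9% in the 20% of the span nearest to an end. Of the H3K4me3-covered bases, 83.1% lay under H3K27me3 peaks of the same condition for Low-Chir and 70.1% for Boost-Chir. H3K27me3 peaks covered 75.1% of the whole span under Low-Chir and 68.8% under Boost-Chir, so the share in Boost-Chir was close to that of the span.

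H3K4me3 length in the domains was 898 kb under Low-Chir and 1008 kb under Boost-Chir, a ratio of 1.12. The same ratio was 1.16 in loci under 10 kb and 1.29 over the whole lists, so the extension in the domains was smaller than that of the lists. Of the 316 domains that held H3K4me3, 188 had more of it under Boost-Chir (59.5%, exact 95% interval 53.9 to 64.9), close to the 58.9% of all H3K27me3 loci. Of the H3K4me3 loci with no H3K27me3, 84.7% were longer. These were joined from H3K4me3 peaks and taken whole, unlike the domains, where only H3K4me3 inside the span was counted. With the Boost-Chir H3K4me3 list reduced to the Low-Chir length as above, the domain share was 14.2%. That step kept the strongest 16738 of the 45390 Boost-Chir H3K4me3 peaks and left the Low-Chir list whole. What brought the share down was not tested.

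Past a limit of 1.5-fold, H3K4me3 differed in both directions. Of the 279 domains with the mark in both conditions, 86 had it at least 1.5 times longer in Boost-Chir (30.8%) and 52 at least 1.5 times shorter (18.6%). Over all H3K27me3 loci with H3K4me3 in both lists these shares were 25.3% and 12.5%. Over H3K4me3 loci without H3K27me3 they were 27.8% and 2.26%. Loci with shorter H3K4me3 thus made up a larger share among the domains, but the lengths are not measured alike. Loci without H3K27me3 were joined from H3K4me3 peaks and taken whole, while in domains only H3K4me3 inside the span was counted. The part of H3K4me3 length per locus in these shares was not tested.

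The 2 marks moved in opposite directions at the domains where H3K4me3 differed most. H3K4me3 was at least 2 kb longer in Boost-Chir at 31 domains, and H3K27me3 was shorter at 29 of them (93.5%, exact 95% interval 78.6 to 99.2). It was at least 2 kb shorter at 24 domains, and H3K27me3 was longer at 20 of these (83.3%, 62.6 to 95.3). At the other 315 domains H3K27me3 was shorter at 218 (69.2%, 63.8 to 74.3). Across the 316 domains with H3K4me3, the changes in covered length had a Pearson r of -0.73 and a Spearman rho of -0.50; all points share the same 4 libraries and the domains differ in size. In loci of 5 to 10 kb, all 11 with H3K4me3 at least 2 kb longer had shorter H3K27me3 (exact 95% interval 71.5 to 100). All 3 with H3K4me3 at least 2 kb shorter had longer H3K27me3 (29.2 to 100). Of the other 551 loci of this size, 372 had shorter H3K27me3 (67.5%) and 179 had longer (32.5%). The directions in these smaller loci were the same, on few loci. With the Boost-Chir H3K4me3 list reduced to the Low-Chir length as above, 10 domains had H3K4me3 at least 2 kb longer, and H3K27me3 was shorter at 100% of them. H3K4me3 was then at least 2 kb shorter at 80 domains, with longer H3K27me3 at 56.2%.

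**Figure D3:**
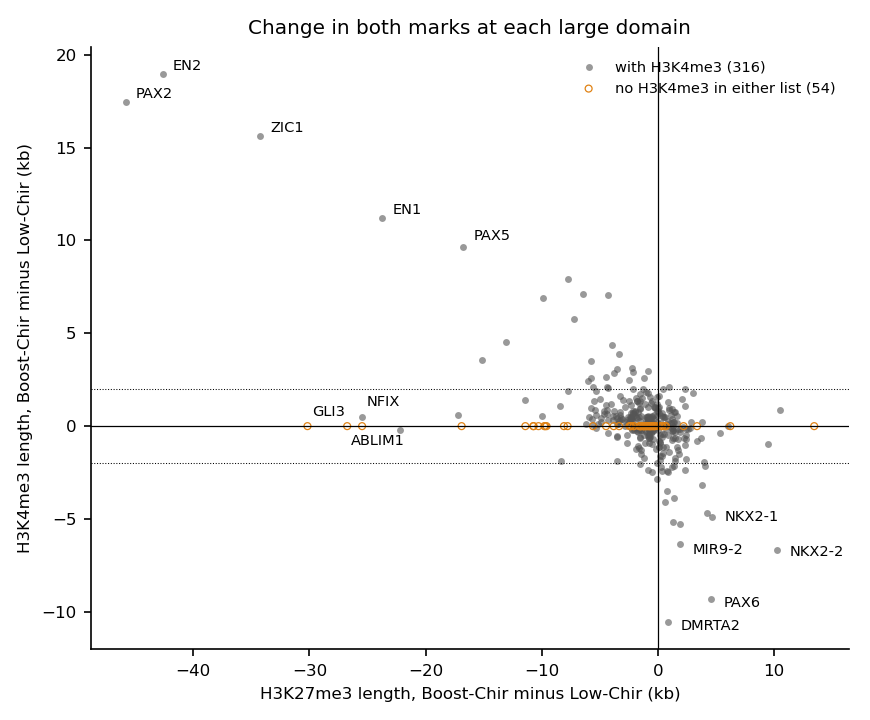
Change in H3K27me3-covered length (x axis, kb, Boost-Chir minus Low-Chir) and in H3K4me3-covered length (y axis, kb) at each of the 370 large domains; filled points are the 316 domains with H3K4me3, open points the 54 without, and dotted lines mark 2 kb. PAX2, EN2, ZIC1 and EN1 lie at the upper left, PAX6, DMRTA2 and NKX2-2 at the lower right, and GLI3 and ABLIM1 on the zero line of H3K4me3.

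H3K4me3 was longer over the same border and dorsal genes where H3K27me3 was shorter. EN2/CNPY1 had 1.24 kb of H3K4me3 under Low-Chir and 20.2 kb under Boost-Chir, PAX2 had 6.58 and 24.0 kb, and ZIC1/ZIC4 9.34 and 24.9 kb. EN1 had 19.04 kb under Low-Chir and 30.2 kb under Boost-Chir. Among PAX genes, the PAX5 domain at chr9:37017952-37043371 had 3.26 and 12.9 kb of H3K4me3 with 20.7 and 3.95 kb of H3K27me3. PAX3 had 4.95 and 11.8 kb, PAX7 0.608 and 5.13 kb, and PAX8 0.679 and 3.31 kb of H3K4me3.

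Longer H3K4me3 in Boost-Chir was also seen over further genes, most of them not of the border. GSX1, a homeobox gene of the ventral forebrain and dorsal spinal cord (chr13:28358481-28378774), had 0.4 kb of H3K4me3 under Low-Chir and 8.35 kb under Boost-Chir, with H3K27me3 of 14.3 and 6.51 kb. CDX2, a caudal homeobox gene (chr13:28511689-28563037), had 1.12 and 8.23 kb of H3K4me3 while its H3K27me3 was 36.5 and 30.1 kb. SP9 (chr2:175189717-175211096) had 5.01 and 12.1 kb of H3K4me3. GBX2, a gene of the anterior hindbrain, had 4.16 and 6.23 kb of H3K4me3 and 21.8 and 17.6 kb of H3K27me3. MNX1, a motor neuron gene, had 0.511 and 4.38 kb of H3K4me3.

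H3K4me3 was shorter over genes of the forebrain and of ventral or interneuron progenitors. DMRTA2, a regulator of the cortical hem (chr1:50874745-50902820), had 11.3 kb of H3K4me3 under Low-Chir and 0.788 kb under Boost-Chir. PAX6 (chr11:31812412-31858523) had 12.7 and 3.35 kb, NKX2-2 13.4 and 6.70 kb, and DBX1 7.31 and 2.62 kb. NKX2-1 had 4.90 kb under Low-Chir and no H3K4me3 peak under Boost-Chir. NR2F1, a nuclear receptor of cortical patterning (chr5:92921756-92956004), had 8.24 and 2.99 kb, SIX3, a gene of the anterior forebrain and eye field, 8.60 and 4.75 kb, and LHX9 7.28 and 2.15 kb. At DMRTA2, NR2F1 and SIX3 H3K27me3 differed by less than 2 kb between the conditions, from 22.4 to 23.3 kb, 31.2 to 33.1 kb and 33.8 to 35.2 kb.

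**Figure D4:**
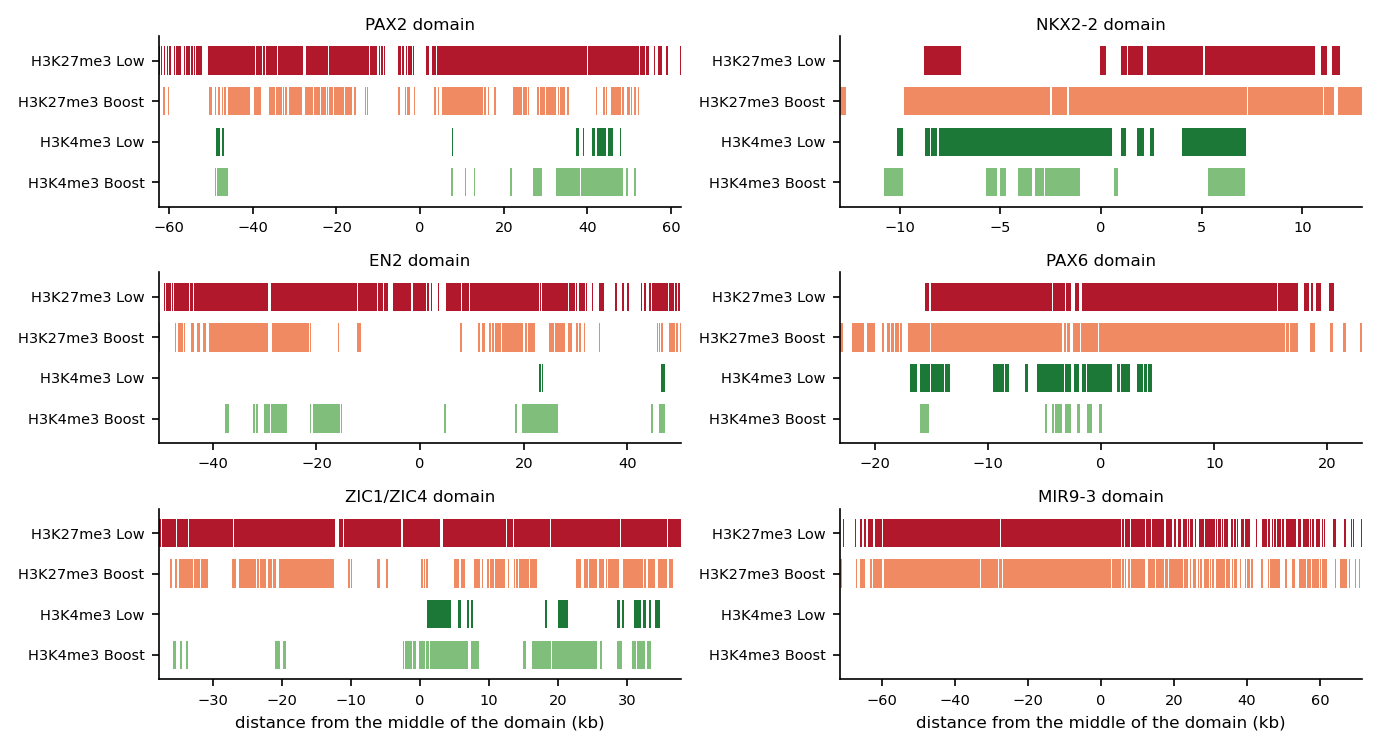
Peaks of the 4 libraries in 6 domains, by distance from the middle of each domain (x axis, kb); each bar is a stretch under peaks, with H3K27me3 in red and orange and H3K4me3 in dark and light green. At PAX2, EN2 and ZIC1/ZIC4 Boost-Chir has less H3K27me3 and more H3K4me3, which lies both over bases that lost H3K27me3 and over bases that kept it, at NKX2-2 and PAX6 H3K4me3 is shorter in Boost-Chir, and MIR9-3 has none.

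Summed over the domains, bases that lost H3K27me3 carried more H3K4me3 in Boost-Chir, in part through the domains with the greatest falls. Over all domains, 1.71 Mb was covered by H3K27me3 in Low-Chir alone. H3K4me3 peaks lay over 7.35% of it under Low-Chir and 10.9% under Boost-Chir. Over the 7.38 Mb covered by H3K27me3 in both conditions the shares were 8.40% and 8.76%. They were 5.76% and 6.32% over bases covered in Boost-Chir alone, and 4.71% and 5.53% over bases of the span covered in neither. Without the 10 domains with the greatest falls, the shares over the lost bases were 7.12% and 8.99%. Of the 249 domains whose lost bases held H3K4me3, 125 had more of it there under Boost-Chir and 101 had more under Low-Chir. At EN2/CNPY1 Boost-Chir H3K4me3 covered 9626 lost and 9475 kept bases, and at PAX2 14058 and 9938. Most of the lost bases therefore had no H3K4me3 in either condition.

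Domains without H3K4me3 in either condition made up 54 of the 370 (14.6%) and 12 of the 30 that were at least 1.5 times shorter. Those 12 included GLI3, ABLIM1 and the domain beyond GLI2. Of the 54, 46 had a mean length of 10 to 20 kb, as did 25 of the 30 shortened domains. The part of size in these shares was not tested. The median H3K27me3 ratio of the 54 was 0.911 (0.870 to 0.939). MIR9-3 and the stretch between INHBB and GLI2, the 2 longest of the 54, differed by less than 2 kb. UNCX, a homeobox gene of the sclerotome (chr7:1258792-1291467), had 30.6 and 28.5 kb, and a domain on chromosome 15 without a named gene (chr15:69839839-69907470) had 40.2 and 34.6 kb. Named genes lay in 37.0% of these 54 domains, against 73.8% of the 279 with H3K4me3 in both conditions. Genes were named from general knowledge after the domains had been seen, so these shares do not measure gene content. Of the 18 shortened domains that did hold H3K4me3, the mark was longer at 16 (88.9%, exact 95% interval 65.3 to 98.6), against 172 of 298 (57.7%, 51.9 to 63.4) at the rest. The shortened set was defined by the same H3K27me3 lengths that chose the domains. It numbered 13 where both conditions had to reach 10 kb, and the contrast was not repeated there, so no link is read from it.

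The 3 genes of the miR-9 sequence shown above differed in H3K4me3 and lay in H3K27me3 domains of different length. MIR9-1 with RHBG (chr1:156347448-156422639) had 49.1 kb of H3K27me3 under Low-Chir and 55.1 kb under Boost-Chir, with 0.200 and 0.228 kb of H3K4me3. MIR9-2 (chr5:87952869-87995181) had 37.2 and 39.1 kb of H3K27me3, with 9.23 and 2.89 kb of H3K4me3. MIR9-3 had no H3K4me3 peak in either condition. MIR183/MIR96/MIR182 (chr7:129410257-129430262) had 15.9 and 11.0 kb of H3K27me3 and at most 0.222 kb of H3K4me3. MIR129-2 (chr11:43590040-43608578) had 13.7 and 15.7 kb of H3K27me3, with 5.31 and 6.79 kb of H3K4me3. The miR-196 and miR-10 genes lie within the HOX domains and share their values.

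Some domains stood in runs. The median distance to the nearest other large domain was 928 kb, but 91 domains lay within 100 kb of another, in 41 runs. Runs of 3 domains or more numbered 9. The run of WNT6, WNT10A, FEV and IHH held 113.8 kb under Low-Chir and 113.7 kb under Boost-Chir, and that of NKX2-1, NKX2-8 and PAX9 held 80.4 and 86.3 kb. The 3 PAX5 domains formed the run with the lowest ratio of these 9, at 0.367.

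The limit of 10 kb cut through a continuous range of sizes. Just above it were DRGX (chr10:50598052-50612370) with a mean of 10.1 kb, chr12:48399566-48414538 with 10.1 kb and IRF4 (chr6:385553-398531) with 10.0 kb. Just below it were chr10:88120001-88137064 with 9.98 kb, chr11:69626563-69640889 with 9.96 kb and chr22:46361513-46374625 with 9.95 kb. Of the 370 domains, 230 were between 10 and 20 kb, 120 between 20 and 50 kb and 20 at 50 kb or more.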

How the data were processed

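The files were 4 deposited peak lists, 1 for each mark and condition, from 6 samples; the 2 input samples were not analysed here. Names of the deposited peaks show that each antibody library was called against the input of the same condition. Reads were handled with cutadapt 1.6, BWA 0.7.12 and Picard, on hg19, per the submitters' processing notes; the peak caller is not given in the sources used here. Each peak in the authors' lists has a start, an end, a summit, a fold enrichment (a ratio over local background), a −log10 p-value and a −log10 q-value. Reads at the summit and the list's background were solved from the deposited fold and −log10 p for 100% of peaks, assuming a Poisson tail.

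Peaks of both H3K27me3 lists were joined within 3 kb, and bases under peaks of each list were summed per locus with Python 3.11.15, numpy 2.4.6, pandas 2.3.3 and scipy 1.17.1. The code was tested on simulated data. Shares carry exact (Clopper-Pearson) 95% intervals and medians order-statistic intervals. The domains named are the first 15 by mean length, the 10 greatest falls and rises in H3K27me3, the 10 greatest rises and 5 greatest falls in H3K4me3, the first 5 without H3K4me3 and 3 on each side of 10 kb; further ones were chosen after their values were seen, and 1 of the rises in H3K4me3 is not reported here. Members and gene lists were chosen with earlier results of these data known. Gene positions on hg19 came from general knowledge, to the nearest kb, and no coordinates were converted. Marker genes were not used as a list, since no hg19 annotation was at hand.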

Additional observations from a re-analysis of the deposited data

How the results depend on the processing

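Of 78 alternative values, 59 kept their direction and stayed near the reported value, 18 moved and 1 reversed. A mean length of 15 kb left 236 domains, 14 of them at least 1.5 times shorter in Boost-Chir; the count of shorter domains was 19 with joining at 1 kb, 13 with both conditions at 10 kb or more and 18 at a limit of 2-fold. The count of longer domains was 2 with joining at 1 kb and 1 at 2-fold. With the Low-Chir H3K27me3 list thinned to its strongest peaks until both lists covered the same length, the median ratio was 0.983 and 9 domains were longer. H3K4me3 was in 69.5% of domains under Low-Chir and 73.0% under Boost-Chir with peaks at a −log10 q of 5 or more, and in 69.7% and 74.6% where at least 500 bp was required. The following alternatives were chosen after seeing the data. With the Boost-Chir H3K4me3 list thinned to the Low-Chir length, it was in 50.8% of domains, the share with longer H3K4me3 was 14.2%, H3K27me3 was shorter in 100% of the 10 domains with H3K4me3 at least 2 kb longer, and it was longer in 56.2% of the 80 with H3K4me3 at least 2 kb shorter. The share of 93.5% with shorter H3K27me3 was 100% at 15 kb and 100% with H3K4me3 peaks at a −log10 q of 5 or more.

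No paired analysis was possible because there is 1 library per mark and condition. The same limit holds for every difference given. Depth limits the lists too: the H3K4me3 lists differ 1.21-fold in depth, weak peaks near the calling threshold can be missed in either list, and a length of 0 says only that no peak was listed.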
